A study of Mus musculus with 15 samples.

Results

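Trbv1 and Trbv31 are the outlying V genes of the mouse T cell receptor (TCR) β locus. Trbv1 is the first V gene at one end of the locus, and Trbv31 lies beyond the constant genes at the other end. Their members are all rearrangements whose V gene is given as TCRBV01-01 or TCRBV31-01, the assay's names for Trbv1 and Trbv31. They numbered 2416 of 29992 rearrangements over 15 samples (1474 for Trbv1 and 942 for Trbv31), among 35 V genes. No measured level was used to choose them.

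The samples were the tumor-draining lymph node (TdLN), tumor 1 and tumor 2 of 5 untreated female C57BL/6 mice, 6 weeks old at purchase. Every mouse carried B16F10GP, a melanoma line transduced with a lentivirus for the glycoprotein of LCMV and sorted for its fluorescent marker, in the right flank from day 0 (tumor 1) and in the left flank from day 3 (tumor 2). Tissues were taken on day 19, and the TdLN was that of the tumor 1 side. From each tissue the CD8+ cells positive for PD-1 and CD44 were sorted and their genomic DNA was sequenced with the immunoSEQ assay, so that no group was treated and no expression was read that could check the sort.

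A TCR β gene is assembled in the thymus by joining a D to a J segment and then a V segment to the DJ. The RAG enzymes cut at the recombination signal beside each segment, a heptamer and a nonamer with a spacer between them. Exonucleases trim the ends, terminal transferase adds N bases, and the join encodes CDR3, the loop of the β chain that touches the peptide. A join that is out of frame makes no β chain. Such a join persists in a T cell whose other allele is productive, and so records usage before selection for a protein. Most V genes join by deleting the DNA between them and the D segment. Trbv31 is transcribed the other way and joins by inversion, which keeps that DNA on the chromosome.

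On chromosome 6 of GRCm38, Trbv1 (ENSMUSG00000076461) spans positions 40891229 to 40891885 on the plus strand. The next V gene, Trbv2, starts 155 kb further on, and the 235 kb from Trbv2 to Trbv30 hold all V genes but the outlying pair. Trbv1 ends 641 kb before Trbd1, the first D segment, against 251 kb for Trbv30. Trbv31 (ENSMUSG00000076499) spans 41557691 to 41558452, which is 9.34 kb past the end of Trbc2 and 15.5 kb past the start of Trbd2. Of the 35 V genes in the files, 34 lie on the plus strand and Trbv31 alone on the minus strand.

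**Figure D1:**
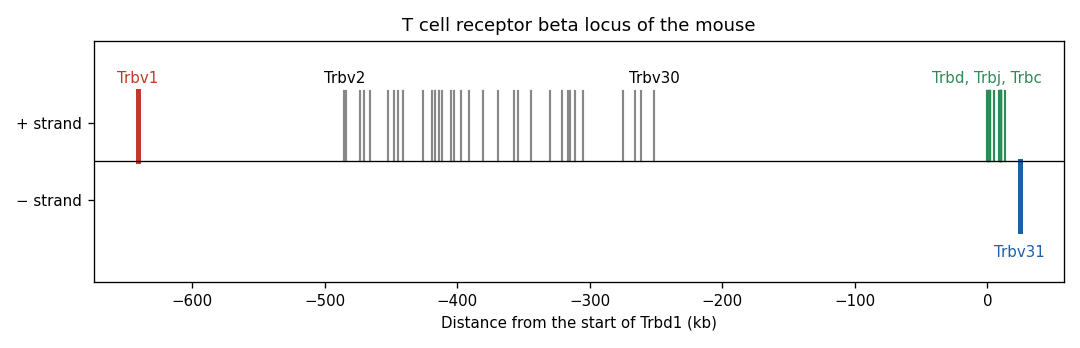
V (grey, red, blue), D, J and C (green) genes of the mouse TCR β locus by distance in kb from the start of Trbd1, above the line for the plus strand and below it for the minus strand. Trbv1 stands 641 kb before Trbd1, and Trbv31 is the V gene on the minus strand, past the D, J and C genes.

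The germline ends at which the cuts fall show how the gene pair differs at the join. The lines give the last 45 bases of each V segment and the signal after it, with heptamer and nonamer in capitals and the spacer of 23 bases between them, read from GRCm38 at chr6:40891841-40891924 (plus strand) and chr6:41557654-41557737 (minus strand).
Trbv1: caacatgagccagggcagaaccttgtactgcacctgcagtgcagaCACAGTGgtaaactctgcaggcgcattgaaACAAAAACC
Trbv31: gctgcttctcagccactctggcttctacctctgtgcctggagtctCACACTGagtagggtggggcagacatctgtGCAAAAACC

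The signal was read on the strand of each gene, directly after the last base of its untrimmed joins, for the 25 V genes whose last base was placed at a single position. Set against the textbook heptamer CACAGTG, Trbv1 matched all 7 bases, as did 8 of the 25 V genes (32%), while Trbv31 matched 6, the median. Set against the textbook nonamer ACAAAAACC, Trbv1 matched all 9 bases and was the only V gene of the 25 to do so (4%). Trbv31 matched 8, and the median was 6. These matches describe the letters and not how well a signal is cut.

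Total templates, the assay's estimate of genomes carrying a rearrangement, ranged from 4909 to 13848 in the TdLN, from 5382 to 7946 in tumor 1 and from 338 to 5401 in tumor 2. A TCR is here a distinct productive nucleotide rearrangement, in frame and without a stop codon. The TdLN held 1290 to 5722 TCRs, tumor 1 held 183 to 366 and tumor 2 held 50 to 553, the lowest in mouse 4. The libraries of mice 1 to 3 and of mice 4 and 5 have names in different styles, so values are also given apart where they differ.

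Some libraries listed the same rearrangements under different mouse numbers. Of all rearrangements in tumor 2 of mouse 1, 47.2% were also found in mouse 2 and 19.7% in mouse 3. In tumor 2 of mouse 3, 27.7% were also found in mouse 1, against at most 0.769% in mouse 4 or 5. For Trbv1 and Trbv31 the counts in tumor 2 were 33 of 56 rearrangements of mouse 1 also in mouse 2, 24 of 48 of mouse 2 also in mouse 1, and 9 of 17 of mouse 3 also in mouse 1. Of the first 33, 11 had 5 or more N bases. In tumor 1, 21 of 65 member rearrangements of mouse 2 were also in mouse 1. Mice 4 and 5 shared rearrangements as well. Over all V genes, 33 of 103 rearrangements in tumor 2 of mouse 4 were also in mouse 5, 12 of them with 5 or more N bases. In tumor 1 of mouse 4 the count was 64 of 684. For Trbv1 and Trbv31 these counts were 2 of 12 in tumor 2 and 5 of 58 in tumor 1. Whether cells, DNA or reads were shared, or mouse numbers exchanged, was not tested. The V gene shares of TCRs and the junction values of the tumors are given below with and without rearrangements found in more than 1 mouse, and template shares only with them.

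In the TdLN, Trbv31 made up a smaller share of productive than of out-of-frame rearrangements in every mouse, while the shares of Trbv1 overlapped. The productive share of Trbv31 in mice 1 to 5 was 2.30%, 3.01%, 2.40%, 2.76% and 2.41% of TCRs. Its out-of-frame share was 3.07%, 4.64%, 3.77%, 4.14% and 4.22%. The ranges did not overlap. The means were 2.58% ± 0.296 and 3.97% ± 0.590 (SD, n = 5), a difference of -1.39 percentage points (p = 0.00794 by an exact two-sided permutation of the values, as low as 5 against 5 can go, adjusted p = 0.0159). This permutation ignores that each TdLN gave a value to each side. Among rearrangements of at least 2 templates the difference was -2.75 (adjusted exact permutation p = 0.0198). Over all samples, 484 of 942 Trbv31 rearrangements were productive (51.4%), against 62.1% for all V genes and 63.4% for Trbv1. These counts include the same TdLN rearrangements and are not separate support.

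Trbv1 held 5.27%, 5.28%, 4.57%, 5.21% and 4.62% of the TCRs of the TdLN in mice 1 to 5. Its out-of-frame shares were 5.02%, 5.34%, 3.77%, 5.07% and 5.18%. They overlapped, with means of 4.99% ± 0.361 and 4.87% ± 0.631 (SD, n = 5, p = 0.77 by exact permutation before and after adjustment). Of the 20 V genes tested, those with a mean share of at least 1%, 11 were called in this comparison (55%), 6 higher and 5 lower among productive joins. The ratio of productive to out-of-frame share was 0.650 for Trbv31, rank 18 of 20, and 1.02 for Trbv1, rank 10, with a median of 0.980. Among the other V genes, 4 of 8 central genes tested (Trbv12-1 to Trbv16) were called higher and 1 lower, while 1 of 6 downstream genes (Trbv17 to Trbv30) was called in each direction. Of the 4 upstream genes (Trbv2 to Trbv5), 1 was called higher and 2 lower. With the mouse as a block, the exact sign-flip test gave p = 0.0625 for Trbv31, the smallest it can reach, and an adjusted p of 0.104. Leaving out mouse 2, 4 or 5 gave an adjusted p of 0.0571, and mouse 1 or 3 an adjusted p of 0.0476 (exact permutation tests).

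**Figure D2:**
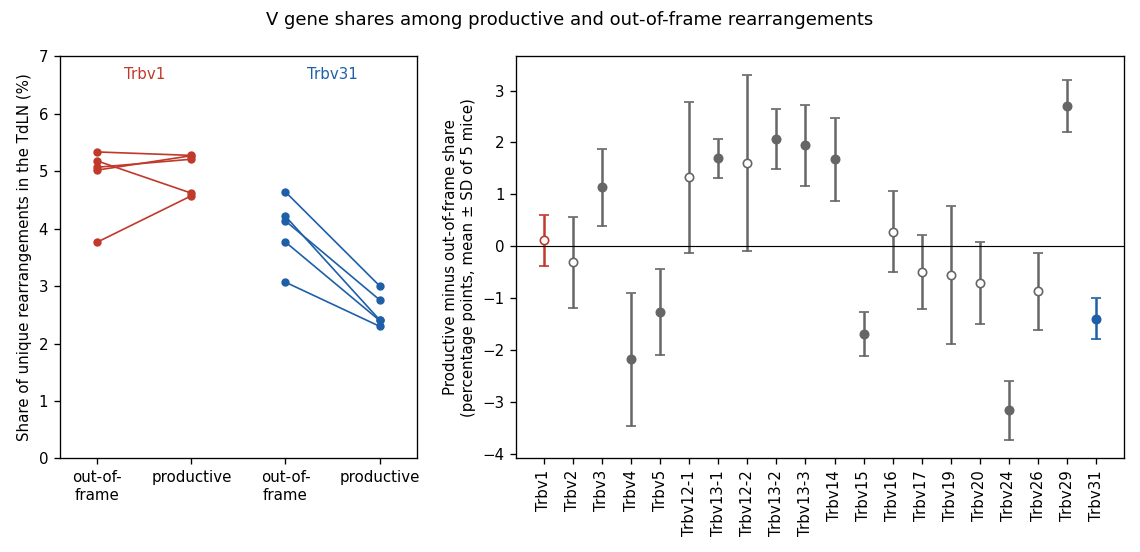
Left, share (%) of unique out-of-frame and of unique productive rearrangements held by each gene in the TdLN, with a line per mouse. Right, productive minus out-of-frame share in percentage points for 20 V genes in locus order (mean ± SD of 5 mice, filled where the adjusted p was under 0.05). All 5 Trbv31 lines fall, and its difference is -1.39, while the Trbv1 lines cross.

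CDR3 loops built on Trbv1 were longer, and those on Trbv31 shorter, than those of all other V genes of the same TdLN. CDR3 length, counted in bases with both conserved end residues, averaged 44.7, 42.8, 42.6, 42.8 and 43.0 for Trbv1 in mice 1 to 5. The mean was 43.2 ± 0.891 against 42.0 ± 0.211 for the other V genes, a difference of 1.19 (SD, n = 5, p = 0.00794 by exact permutation, 0.0198 adjusted). For Trbv31 the averages were 41.0, 41.8, 40.6, 41.0 and 41.0. The mean was 41.1 ± 0.433 against 42.1 ± 0.234, a difference of -0.978 (SD, n = 5, p = 0.00794 by exact permutation, 0.0198 adjusted). Trbv1 was longer and Trbv31 shorter in 5 of 5 mice, and 8 of 20 V genes were called (40%), 4 in each direction. Of the 4 upstream genes (Trbv2 to Trbv5), 3 were called longer, and of 6 downstream genes (Trbv17 to Trbv30), 3 were called shorter. The differences of Trbv2 (2.71 bases) and Trbv20 (-2.99) were larger than those of Trbv1 and Trbv31. Among TCRs of at least 2 templates the adjusted exact permutation p was 0.0952 for Trbv1 and 0.30 for Trbv31.

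The germline V segments differ in the same order. Up to its last base, Trbv1 brings 17 bases of CDR3, the median of the 20 V genes and the most of any, and Trbv31 brings 14, the fewest, as does Trbv20. Both lost fewer V bases by trimming than other V genes did. Trbv1 lost 2.32, 2.0, 1.95, 2.01 and 1.94 bases per TCR in mice 1 to 5, on average 2.04 ± 0.159 against 2.69 ± 0.149 (SD, n = 5, p = 0.00794 by exact permutation, 0.0113 adjusted). Trbv31 lost 1.42, 1.94, 1.61, 1.68 and 1.67, on average 1.67 ± 0.186 against 2.68 ± 0.146 (SD, n = 5, p = 0.00794 by exact permutation, 0.0113 adjusted). This measure was added after its values were seen, and 15 of 20 V genes were called in it (75%). Trbv2, the neighbor of Trbv1, lost least of all, at 0.972 bases.

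No difference in N bases passed the test. Trbv1 had 4.07, 3.43, 2.73, 3.19 and 2.94 N bases per TCR in mice 1 to 5 and Trbv31 had 3.81, 4.14, 3.35, 3.39 and 3.41. The means were 3.27 ± 0.518 against 3.61 ± 0.305 for Trbv1 (adjusted p = 0.69) and 3.62 ± 0.345 against 3.59 ± 0.308 for Trbv31 (adjusted p = 0.93, exact permutation tests, n = 5). In this comparison 0 of 20 V genes were called (0%), and 1 had an unadjusted p under 0.05. TCRs without any N base made up 10.1% ± 2.56 of Trbv1 and 11.6% ± 4.6 of Trbv31 TCRs, with a median of 9.65% over the 20 V genes.

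The residues encoded by the germline V ends began most loops. Over all samples, 95.7% of 934 Trbv1 CDR3s began CTCS and 76.3% began CTCSA. Of 484 Trbv31 CDR3s, 95.7% began CAW, 76.0% CAWS and 39.9% CAWSL.

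**Figure D3:**
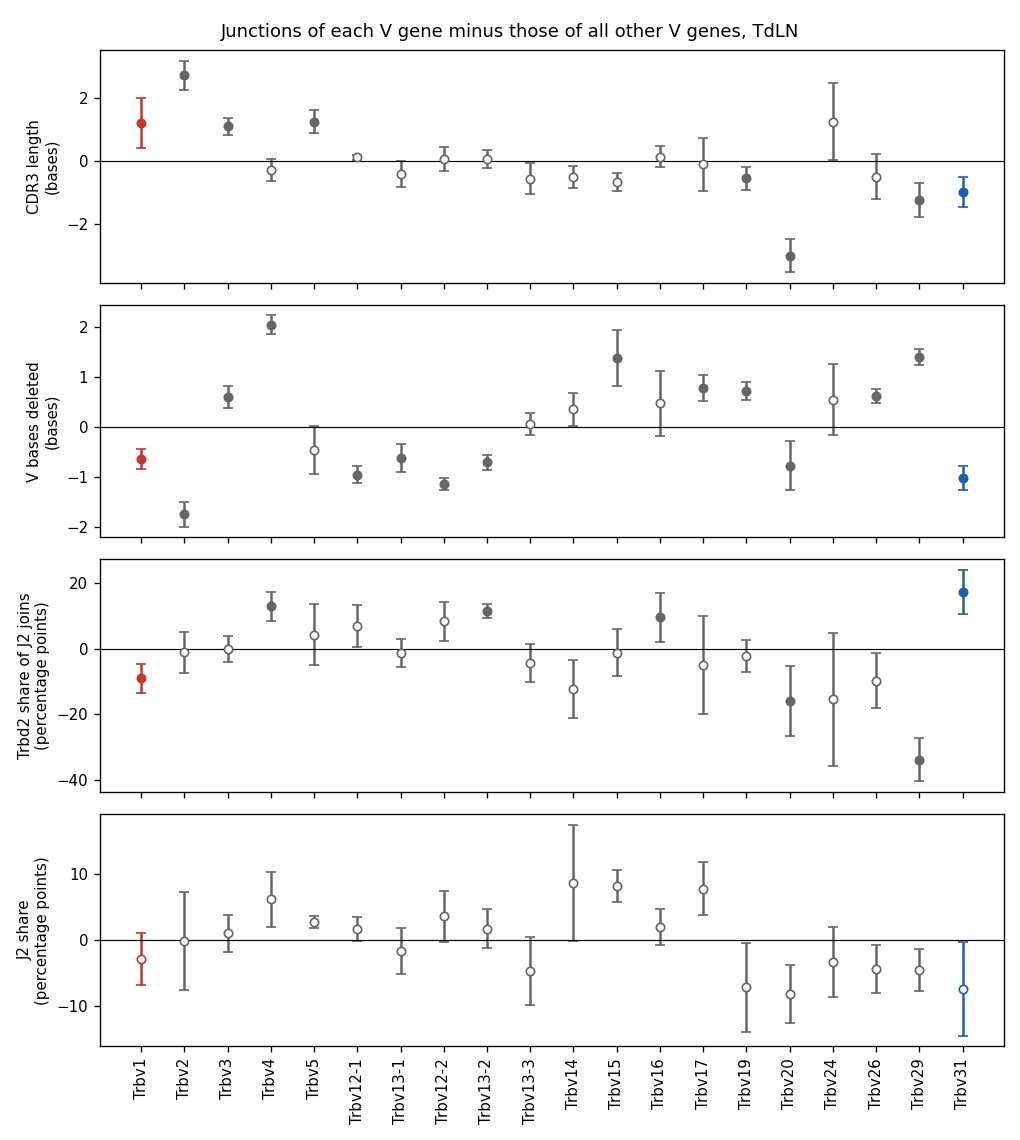
Value over the TCRs of each V gene minus that over all other V genes in the TdLN (mean ± SD of 5 mice, V genes in locus order, filled where the adjusted p was under 0.05), for CDR3 length and V bases deleted (bases), Trbd2 share of J2 joins and J2 share (percentage points). Trbv1 (red) and Trbv31 (blue) lie on opposite sides of 0 for CDR3 length and for Trbd2 and on the same side for V bases deleted.

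The D partners of the gene pair differed from those of other V genes in opposite directions. Each D segment has its own group of J segments downstream, and Trbd1 can join J segments of either group, whereas Trbd2 lies past the first group. Among J2 joins with a D assigned, Trbv31 TCRs of the TdLN used Trbd2 in 85.0%, 85.7%, 80.0%, 71.1% and 79.5% in mice 1 to 5, out of 20, 21, 15, 83 and 73 TCRs. The mean was 80.3% ± 5.86 against 63.1% ± 2.56 for other V genes (SD, n = 5, difference 17.1, p = 0.00794 by exact permutation, 0.0227 adjusted), the highest of the 20 V genes. Trbv1 used Trbd2 in 59.5%, 49.1%, 55.2%, 51.6% and 58.7% of 42, 53, 29, 161 and 126 such TCRs. Its mean of 54.8% ± 4.51 lay below the 63.9% ± 2.45 of the others (SD, n = 5, difference -9.13, p = 0.00794 by exact permutation, 0.0227 adjusted).

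Trbv31 was higher and Trbv1 lower in 5 of 5 mice, and 7 of 20 V genes were called (35%). This comparison too was added after its values were seen. The upstream genes Trbv2 to Trbv5 had a median difference of 2.06 percentage points, and the downstream genes Trbv17 to Trbv30 had a median of -12.6, with 0 of 6 above 0. Out-of-frame joins gave a smaller contrast, at 74.4% ± 6.04 against 71.9% ± 3.71 for Trbv31 and 67.7% ± 9.45 against 72.2% ± 3.69 for Trbv1 (SD, n = 5), which was not tested. The D segments are short and alike once trimmed, and the assignment is that of the files. In J1 joins, where a deletional join leaves no Trbd2, the files assigned Trbd2 to 12 of 127 Trbv31 TCRs (11.1% ± 3.52 over mice), 15 of 219 Trbv1 TCRs (5.35% ± 3.26) and 363 of 3675 TCRs of other V genes (10.02% ± 1.21, SD, n = 5). In the mean over mice, Trbv1 thus lay below Trbv31 and below the pool of other V genes in this measure too. The other V genes were not compared singly in J1 joins. The part of such Trbd2 assignments in the contrast was not tested. Leaving out any mouse gave adjusted p values of 0.0571 to 0.0816 for both genes, and for CDR3 length 0.0571 to 0.0714 (exact permutation tests, n = 4). With the mouse as a block, the exact sign-flip test gave adjusted p = 0.125 for Trbd2, 0.0962 for CDR3 length and 0.0833 for V bases deleted.

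Trbv31 also paired less often with J2 segments, a difference that did not pass adjustment. J2 joins made up 67.7%, 53.1%, 54.8%, 64.6% and 60.1% of Trbv31 TCRs in the TdLN of mice 1 to 5. The mean of 60.1% ± 6.23 was below the 67.6% ± 1.63 of other V genes in 5 of 5 mice (SD, n = 5, p = 0.0317 by exact permutation, 0.106 adjusted). For Trbv1 it was 64.5% ± 4.62 against 67.5% ± 1.44 (SD, n = 5, adjusted exact permutation p = 0.26). No V gene was called (0%), although 8 of 20 had an unadjusted p under 0.05. Out-of-frame Trbv31 joins had a J2 share of 59.4% ± 8.40 against 70.6% ± 1.95, lower again in 5 of 5 mice.

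Trbj2-7 was the leading partner of both genes, in 19.4% ± 4.01 of Trbv1 and 17.3% ± 1.81 of Trbv31 TCRs. For Trbv31 this was below the 22.0% ± 0.681 of other V genes in 5 of 5 mice. The least used J segment that was found was Trbj1-3 with Trbv1, at 3.54% ± 1.21, and Trbj1-6 with Trbv31, at 2.96% ± 1.74. Trbj1-7 and Trbj2-6 were found in 0 of 777 Trbv1 and 0 of 406 Trbv31 TCRs, which allows shares of up to 0.386% and 0.739%. Trbj2-5, named after its values were seen, made up 6.24% ± 2.01 of Trbv31 TCRs against 11.3% ± 0.742 of others, lower in 5 of 5 mice (SD, n = 5, not tested).

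In the tumors the share of both genes varied more between mice than in the TdLN, and no difference between tissues passed the test. Trbv1 held 3.27%, 6.85%, 3.30%, 4.64% and 2.68% of the TCRs of tumor 1 in mice 1 to 5, on average 4.15% ± 1.67. In tumor 2 it held 7.85%, 4.42%, 3.61%, 6.0% and 7.96%, on average 5.97% ± 1.97 (SD, n = 5). Both ranges span that of the TdLN, 4.57% to 5.28%. The smallest sample, tumor 2 of mouse 4, rests on 3 of 50 TCRs (95% Wilson interval 2.06% to 16.2%). The exact permutation p adjusted over 20 V genes was 0.56 for tumor 1 against TdLN, 0.53 for tumor 2 against TdLN and 0.60 between the tumors. Among rearrangements of at least 2 templates the Trbv1 difference between tumor 1 and TdLN was -2.75 percentage points (p = 0.00794 by exact permutation, 0.0794 adjusted), against -0.843 among all TCRs.

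Trbv31 held 4.08%, 3.08%, 2.75%, 3.83% and 2.38% of tumor 1 and 1.51%, 1.66%, 0.515%, 4.0% and 3.07% of tumor 2. The means were 3.22% ± 0.717 and 2.15% ± 1.38, beside 2.58% ± 0.296 in the TdLN (SD, n = 5). Tumor 1 was above the TdLN in 4 of 5 mice (adjusted exact permutation p = 0.28), and with at least 2 templates the difference was 1.35 in place of 0.646 (p = 0.0397 by exact permutation, 0.13 adjusted). Tumor 2 was below it in mice 1 to 3, with a mean difference of -1.34 percentage points, and above it in mice 4 and 5, with 0.949 (all mice, adjusted exact permutation p = 0.72). The 31 Trbv31 TCRs of all tumor 2 samples include a single TCR in mouse 3, also listed in mice 1 and 2, and 2 in mouse 4. Tumor 2 of mice 1 to 3 list each other's rearrangements, and tumor 2 of mouse 4 shares 33 of its 103 rearrangements with mouse 5.

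No V gene was called between any pair of tissues (0% each), and 7, 6 and 2 of 20 had an unadjusted p under 0.05 for tumor 1 against TdLN, tumor 2 against TdLN and tumor 1 against tumor 2. In this design the smallest p passes the adjustment over 20 V genes only if at least 4 V genes share it or a larger number have p values near it. edgeR's quasi-likelihood test on the TCR counts called 1 V gene in the first comparison, 2 in the second and 0 in the last, and neither Trbv1 nor Trbv31 in any (edgeR adjusted p from 0.15 to 0.787 over its 3 settings). Without rearrangements found in another mouse, the differences from the TdLN were -0.876 (tumor 1) and 1.20 (tumor 2) percentage points for Trbv1 and 0.722 and -0.303 for Trbv31. Between tumor 1 and tumor 2 they were -2.07 for Trbv1 and 1.03 for Trbv31.

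**Figure D4:**
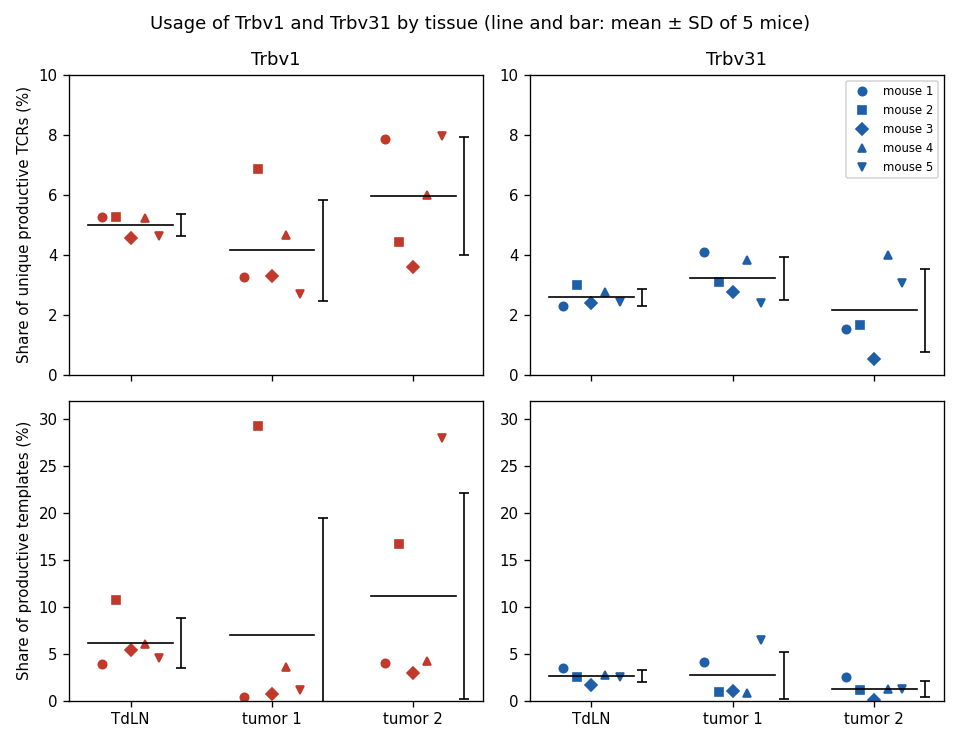
Share (%) of unique productive TCRs (top) and of productive templates (bottom) held by Trbv1 and Trbv31 in the TdLN, tumor 1 and tumor 2, with a symbol per mouse, a line at the mean and a bar for the SD, drawn down to 0 at most. Shares of TCRs overlap between tissues, and by templates Trbv1 reached 29.3% in tumor 1 of mouse 2 and 28.0% in tumor 2 of mouse 5.

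Within the gene pair, Trbv31 junctions in tumor 2 stood apart in their values, on few TCRs. Mean CDR3 length of Trbv31 TCRs in tumor 2 was 37.8, 37, 36, 39 and 39.7 bases in mice 1 to 5, on average 37.9 ± 1.49, below every TdLN (40.6 to 41.8). The difference of -3.19 bases had p = 0.00794 and an adjusted p of 0.0794 (exact permutation test, n = 5). In this comparison 0 of 20 V genes were called (0%), and 7 had an unadjusted p under 0.05. Without rearrangements found in another mouse, mouse 3 had no Trbv31 TCR left in tumor 2, and the means of mice 1, 2, 4 and 5 were 36, 42, 39 and 39.4 on 1, 3, 2 and 16 TCRs. The difference was then -2.05 (4 tumors against 5 TdLN, exact permutation p = 0.0794, adjusted p = 0.32), and mouse 2 lay above every TdLN. In tumor 1 the mean was 40.04 ± 0.822, a difference of -1.06 (exact permutation p = 0.0159, adjusted p = 0.159), and -0.93 without such rearrangements (adjusted exact permutation p = 0.40).

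All Trbv31 TCRs of tumor 2 used a J2 segment in mice 1 to 4, and 58.8% did in mouse 5. Mice 1 to 4 list 14 such TCRs, of which 11 are distinct, since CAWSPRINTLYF was listed in mice 1, 2 and 3 and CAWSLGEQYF in mice 1 and 2 with the same nucleotides. The 14 include VPGVLAESSYEQYF in mouse 1 and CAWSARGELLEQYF in mouse 2, each of 1 template. Both equal a larger out-of-frame Trbv31 join, described below, with 1 base removed. J2 share and CDR3 length without this pair were not computed. The mean of 91.8% ± 18.4 exceeded the 60.1% of the TdLN by 31.7 percentage points (SD, n = 5, exact permutation p = 0.0317, adjusted p = 0.159). Without rearrangements found in another mouse it was 30.7 on 6 TCRs in mice 1, 2 and 4 and 16 in mouse 5 (4 tumors against 5 TdLN, exact permutation p = 0.0238, adjusted p = 0.159). For Trbv1 the J2 share of tumor 2 was 52.3% ± 11.4 against 64.5% (adjusted exact permutation p = 0.21), and its CDR3 length of 43.4 ± 2.91 overlapped the TdLN (adjusted exact permutation p = 0.98). Without rearrangements found in another mouse the Trbv1 differences were -4.26 percentage points for J2 share in place of -12.2 and 0.422 bases for CDR3 length in place of 0.179. No V gene was called for J2 share or N bases in either tumor (0% each).

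Counted in templates, Trbv1 ranged widely between tumors, and in the 3 highest a single TCR made up 88.9% to 94.2% of it. Trbv1 held 0.326%, 29.3%, 0.730%, 3.54% and 1.11% of productive templates of tumor 1 in mice 1 to 5. In tumor 2 it held 4.05%, 16.6%, 2.96%, 4.20% and 28.0%. In the TdLN its shares lay between 3.94% and 10.8%. Trbv31 held 4.12%, 0.905%, 1.03%, 0.829% and 6.5% of tumor 1 and 0.0259% to 2.54% of tumor 2. Against the TdLN, tumor 2 differed by 5.04 percentage points of templates for Trbv1 (adjusted exact permutation p = 0.61) and by -1.34 for Trbv31 (p = 0.0238 by exact permutation, 0.0952 adjusted).

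The rearrangements behind these shares are shown with the bases between V and J in capitals, each 87 bases long and ending within J. The first 2 encode the same CDR3, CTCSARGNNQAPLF, on Trbv1 and Trbj1-5, and differ at T63A and T69G (first line, position from the 5′ end, second line). The others are the largest Trbv31 TCR of mouse 1 (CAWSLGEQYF), that of tumor 1 of mouse 5 (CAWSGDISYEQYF) and the largest out-of-frame Trbv31 join, all with Trbj2-7.
Trbv1, mouse 2: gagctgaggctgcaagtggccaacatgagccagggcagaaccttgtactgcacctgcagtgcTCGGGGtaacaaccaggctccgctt
Trbv1, mouse 5: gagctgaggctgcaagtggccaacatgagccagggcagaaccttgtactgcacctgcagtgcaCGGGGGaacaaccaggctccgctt
Trbv31, mouse 1: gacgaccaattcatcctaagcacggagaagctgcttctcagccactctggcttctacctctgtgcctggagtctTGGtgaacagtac
Trbv31, mouse 5: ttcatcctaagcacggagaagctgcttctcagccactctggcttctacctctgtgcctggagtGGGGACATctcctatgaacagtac
Trbv31, out of frame: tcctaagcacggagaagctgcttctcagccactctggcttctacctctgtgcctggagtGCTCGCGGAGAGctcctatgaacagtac

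The V parts of all 5 were matched exactly in GRCm38. The first runs from 40891821 to 40891882 of Trbv1, so that 3 V bases were lost, and the third from 41557693 to 41557766 of Trbv31, with no V base lost and no N base. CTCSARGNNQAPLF in the first form had 1158 templates in tumor 1 of mouse 2 (27.6% of productive templates), 498 in its tumor 2 (14.8%) and 113 in its TdLN. The same nucleotides, with 2 N bases, had 90 templates in tumor 2 of mouse 1 and none in the TdLN or tumor 1 of mouse 1. The second form had 529 templates in tumor 2 of mouse 5 (25.6%) and was found in no other sample. The CDR3 therefore led Trbv1 in 4 of 10 tumors, which are not separate recurrences. The first form led in tumor 1 and tumor 2 of mouse 2 and in tumor 2 of mouse 1, whose libraries list each other's rearrangements. The second form led in tumor 2 of mouse 5 alone.

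**Figure D5:**
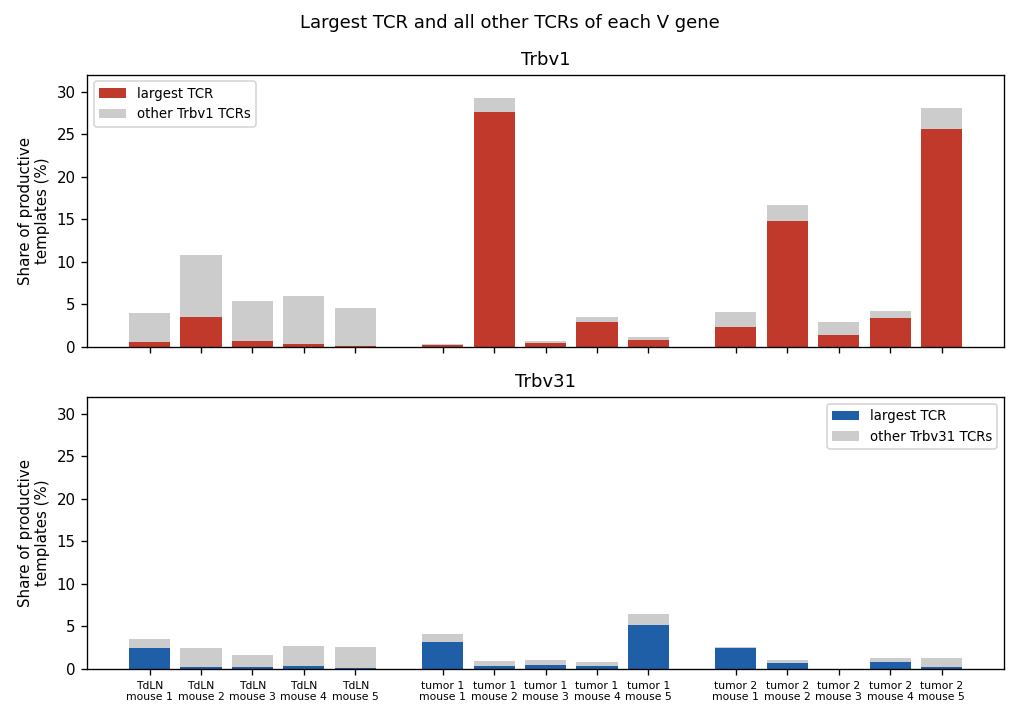
Share (%) of productive templates held by the largest TCR (color) and by all other TCRs (grey) of Trbv1 and of Trbv31 in each sample. The largest Trbv1 TCR holds 27.6%, 14.8% and 25.6% of templates in tumor 1 and tumor 2 of mouse 2 and in tumor 2 of mouse 5, and the largest Trbv31 TCR at most 5.19%.

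Expanded TCRs were accompanied by small near copies. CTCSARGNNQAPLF was listed as 25 nucleotide forms, most of them of 1 template and identical to a large form over the last bases. Rearrangements sharing their last 40 bases with another of the same sample that had at least 50 times as many templates numbered 29 for Trbv1 and 6 for Trbv31. For Trbv1 they were 10 of 20 TCRs in tumor 1 of mouse 2 and 11 of 44 in tumor 2 of mouse 5. Without them the Trbv1 difference from the TdLN was -1.14 percentage points in tumor 1 (exact permutation p = 0.0397, adjusted p = 0.13) and 0.470 in tumor 2.

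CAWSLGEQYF had 197 templates in tumor 1 of mouse 1, 96 in tumor 2 and 92 in the TdLN, and 23 in tumor 2 of mouse 2. A second form that differs at T78G had 44 templates in tumor 1 of mouse 1 and 3 in tumor 2 of mouse 2. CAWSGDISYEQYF had 187 templates in tumor 1 of mouse 5 (5.19%), 10 in its TdLN and none in its tumor 2. For Trbv1, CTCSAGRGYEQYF had 155 templates in tumor 1 of mouse 4, 8 in tumor 2 and 5 in the TdLN. In the other tumors the largest TCR of either gene had at most 55 templates.

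The out-of-frame Trbv31 join, with 9 N bases, was larger than any productive Trbv31 TCR. It had 413 templates in tumor 1 of mouse 2 (11.5% of out-of-frame templates there), 193 in its tumor 2, 28 in its TdLN and 21 in tumor 2 of mouse 1. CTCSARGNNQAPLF in its first form was found in the same 4 samples, and whether the same cells carried both was not tested. Among productive Trbv31 TCRs, 4 of 1 template each equalled this join with 1 base removed, which moved it into frame. Of these, 3 carried 30 to 37 N bases in the files, 2 in tumor 1 of mouse 2 and 1 in tumor 2 of mouse 1. The mean number of N bases of Trbv31 was 10 in tumor 1 of mouse 2, with a median of 4, and 8.20 in tumor 2 of mouse 1. Between tumor 1 and TdLN the difference in N bases was 0.870 with these TCRs -0.337 without small near copies (adjusted exact permutation p = 0.97) and 0.577 without rearrangements found in another mouse.

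The share of tumor 1 TCRs also found in the TdLN of the same mouse had overlapping ranges for the gene pair and other V genes. Of the TCRs of tumor 1, 19 of 60 for Trbv1 (a mean of 36.1% ± 22.9 over mice), 13 of 46 for Trbv31 (30.01% ± 13.1) and 395 of 1315 for all others (33.1% ± 16.0, SD, n = 5) were found in the own TdLN. In tumor 2 the counts were 8 of 96, 1 of 31 and 203 of 1363, against the same TdLN of the tumor 1 side. The 61 member TCRs of tumor 2 of mouse 5 had none in the TdLN of that number, and neither had the 8 of mouse 3. These differences were not tested.

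Most CDR3s of the gene pair were private. Of 796 Trbv1 CDR3s, 762 were found in 1 mouse, 27 in 2, 5 in 3 and 2 in 4. Of 434 Trbv31 CDR3s, 422 were found in 1 mouse, 11 in 2 and 1 in 3. The pair of Trbv1 CDR3s found in 4 mice were both built with Trbj1-4 and differ by V or I at a single residue. They had 7 and 5 templates in all, in 3 and 4 nucleotide forms. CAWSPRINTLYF, the Trbv31 CDR3 in 3 mice, had 1 template in each of tumor 2 of mice 1, 2 and 3 and a single nucleotide form with 4 N bases. At the nucleotide level 2.98% of Trbv1, 1.75% of Trbv31 and 2.07% of all TCRs were found in more than 1 mouse. These counts include libraries that list each other's rearrangements, as with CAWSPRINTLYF and a shared Trbv31 TCR of 30 N bases.

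Across the 15 samples, the share of Trbv1 moved with no other V gene closely. The V genes most like it were Trbv29, Trbv13-3 and Trbv20, with Pearson correlations of 0.29, 0.27 and 0.27. For Trbv31 they were Trbv16 at 0.66, Trbv14 at 0.48 and Trbv20 at 0.11. The correlation between Trbv1 and Trbv31 was 0.07. The points come from 3 tissues of the same mice and differ in depth, and the shares sum to a fixed total.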

How the data were processed

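The deposited files list, for each sample, the nucleotide rearrangements with template counts, V, D and J genes, trimming, N bases and reading frame as the provider of the immunoSEQ assay assigned them for the authors. The counts are whole numbers and were used as deposited. The assay's software versions are not given in the sources used here, and the submitters' processing notes name mm10. The 16 rearrangements without a V gene were left out of shares. Members and lists were chosen with earlier results of these data known.

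Shares were computed per sample over unique productive rearrangements. Each V gene was compared by a two-sided exact permutation test of the difference of means (5 against 5, 252 splits), adjusted by Benjamini-Hochberg across all 20 V genes whose share averaged 1% or more. In the comparisons within the TdLN each side came from the same 5 samples, and this test treats them as unpaired. Values were "called" at an adjusted p under 0.05. The tests were checked on simulated counts of independent samples at the depth of the TdLN. That check did not cover the shallower tumors, shared rearrangements, variation between mice or sides from the same samples. Samples labelled with 1 mouse number were paired in an exact sign-flip test (32 flips). In tumor 1, 10.7% to 49.1% of TCRs of V genes other than Trbv1 and Trbv31 were shared with the TdLN of the same number. In tumor 2 this was 24.0%, 26.2%, 1.61%, 20.0% and 6.10% in mice 1 to 5. The TdLN was that of the tumor 1 side in every mouse, so low values alone cannot show whether the pairing of tumor 2 holds. An exchange of mouse numbers in tumor 2 was not tested, and would change its within-mouse differences. Alternatives were edgeR 4.0.16 with R 4.3.3, shares of templates, out-of-frame or all rearrangements, distinct CDR3s, a minimum of 2 templates, and omission of shared rearrangements, near copies, single mice or samples. The omission of tumor 2 of mouse 4, or of mice 3 and 5, and the comparisons of V bases deleted and of Trbd2 were chosen after seeing the data. V genes named beside the members are the 3 most correlated with each and their neighbors, J genes the most and least used, and TCRs the largest per tumor and the CDR3s in most mice. The expanded TCRs given in full are the largest of these.

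Intervals are 95% Wilson intervals and cover counting error only, as do limits for a count of 0 (3 TCRs of the total). Gene positions are those of GENCODE M21 and sequence is from GRCm38, which is the build mm10. Scripts ran in Python 3.11.15 (scipy 1.17.1, pandas 2.3.3, numpy 2.4.6). Figures were drawn in matplotlib 3.10.9.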

Additional observations from a re-analysis of the deposited data

Results flagged for a closer look

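In 5 of 36 groups of 5 samples a single sample stood apart from the other 4 by Dixon's criterion. Independent normal values meet it by chance in about 1 in 20 groups. Shares on few TCRs, from libraries with shared rearrangements, are not such values, so 5 of 36 cannot be set against that rate. The Trbv1 share of out-of-frame rearrangements in the TdLN was 3.77% in mouse 3, against 5.02% to 5.34% in the others. Mean CDR3 length of Trbv1 in the TdLN was 44.7 bases in mouse 1, against 42.6 to 43.0. The Trbv1 share of templates in tumor 1 was 29.3% in mouse 2, against 0.326% to 3.54%. Trbv31 TCRs of tumor 1 had 10 N bases on average in mouse 2, against 2.75 to 3.50. The J2 share of Trbv31 in tumor 2 was 58.8% in mouse 5 and 100% in the other mice, where 4 equal values make any other value stand apart.

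The Trbv31 share moved in opposite directions in every mouse of the sets that differ in name style. Tumor 2 minus TdLN was -1.34 percentage points in mice 1 to 3 and 0.949 in mice 4 and 5. Tumor 1 minus tumor 2 was 2.08 in mice 1 to 3 and -0.434 in mice 4 and 5. Tumor 2 of mice 1 to 3 list each other's rearrangements, so these mice are not 3 independent observations. Tumor 2 of mouse 4 shares 33 of its 103 rearrangements with mouse 5, so mice 4 and 5 are not independent of each other either. Without rearrangements found in another mouse the values were -1.88 and 2.06 for tumor 2 minus TdLN, and 2.67 and -1.44 for tumor 1 minus tumor 2, with 1, 3, 0, 2 and 16 Trbv31 TCRs left in tumor 2 of mice 1 to 5. These differences between the sets were not tested.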

How the results depend on the processing

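Of 428 values of Trbv1 and Trbv31 under an alternative, 391 kept their sign, 32 of them losing the call, and 37 changed sign. None of the values that changed sign had been called. The cause of these changes was not tested.

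For tumor 1 against TdLN, 4 V genes were called without near copies, 4 by distinct CDR3s, 4 by templates, 1 by edgeR and 3 by edgeR with TMM scaling, and neither Trbv1 nor Trbv31 was among them. By templates the Trbv1 difference was 0.849 percentage points, and among out-of-frame joins that of Trbv31 was -0.106. For tumor 2 against TdLN, edgeR called 2 V genes with library size scaling, 2 with TMM scaling and 2 with the replicate block. The Trbv1 difference was -1.09 with at least 2 templates, -0.0429 by distinct CDR3s and -0.118 among out-of-frame joins. The Trbv31 difference was 0.458 among out-of-frame joins, 0.195 over all rearrangements and 0.949 in mice 4 and 5. By templates the differences were 5.04 (Trbv1) and -1.34 (Trbv31). Counted in TCRs, they were 0.388 to 1.46 (Trbv1) and -0.842 to -0.0605 (Trbv31) with a mouse left out, the extremes being without mice 5 and 3, and without mice 4 and 3. For tumor 1 against TdLN, at least 2 templates gave -2.75 (Trbv1) and 1.35 (Trbv31), and leaving out a mouse -1.45 to -0.552 and 0.362 to 0.816. Between the tumors the Trbv31 difference was -0.434 in mice 4 and 5 and -0.563 among out-of-frame joins.

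Pairing by mouse, with the replicate block, left every difference as it was and gave p of at least 0.0625, the smallest of 32 sign flips, so that 0 V genes were called by this test in any comparison. The blocked values were -1.39 (Trbv31, frame, adjusted p = 0.104, exact), 1.19 and -0.978 (CDR3 length, adjusted p = 0.0962, exact), -0.644 and -1.02 (V bases deleted, adjusted p = 0.0833, exact) and -9.13 and 17.1 (Trbd2, adjusted p = 0.125, exact) for Trbv1 and Trbv31. With at least 2 templates the CDR3 differences were 0.997 and -0.636, with 4 V genes called, and 4 were called for Trbd2.

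Leaving out each mouse in turn gave -0.0578 to 0.284 (Trbv1) and -1.54 to -1.28 (Trbv31) for productive against out-of-frame share, with 0 to 12 V genes called. In the TdLN it gave 0.858 to 1.36 and -1.14 to -0.851 for CDR3 length, with 0 called, -10.7 to -8.17 and 15.2 to 19.1 for Trbd2, with 0 called, and -0.064 to 0.125 for N bases of Trbv31. With 4 mice the smallest p is 0.0286 in an exact permutation test.

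Within the tumors, the J2 difference of Trbv1 in tumor 1 was 4.66 without near copies and 5.38 by distinct CDR3s, and -7.77 to 5.97 with a mouse left out. N bases of Trbv31 differed by -0.815 (tumor 1) and -0.884 (tumor 2) with at least 2 templates, and by -0.337 (tumor 1) without near copies. N bases of Trbv1 in tumor 2 differed by 0.00841 without near copies, 0.0587 by distinct CDR3s and 0.157 without tumor 2 of mouse 4. With a mouse left out, N bases in tumor 1 gave -0.13 to 0.879 (Trbv1) and -0.377 to 1.34 (Trbv31), and in tumor 2 -0.574 to 0.137 (Trbv1). CDR3 length of Trbv1 in tumor 2 differed by -0.556 without tumor 2 of mice 3 and 5, and by -0.815 to 1.17 with a mouse left out. In mice 4 and 5 alone it differed by -2.29, and the J2 share of Trbv1 in tumor 1 by 18.1. Depth limits these values most in tumor 2, where Trbv31 rests on 1 to 17 TCRs per sample.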
